A study of Mus musculus with 6 samples.

Results

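The miRNAs of 4 imprinted loci were examined in small extracellular vesicles (sEVs) released by cultured mouse islets. The members were all entries of the deposited table named mmu-miR-483, miR-675, miR-296, miR-298 or miR-335, with any arm. The rule found 7 of 718 entries, namely mmu-miR-483-5p and miR-483-3p (Igf2 locus), miR-298-5p, miR-296-3p and miR-296-5p (Gnas and Nespas locus), and miR-335-5p and miR-335-3p (Mest locus). No entry of the table was named miR-675, the miRNA of H19, and none was the 3p arm of miR-298, so both were not analysed here.

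Islets came from mice labelled with strain C57/B6J and genotype WT, and were on a chow diet (labelled NCD) or a diet rich in fat (labelled HFD). The study took 9 weeks of HFD as its state with β-cell compensation, and named the sEVs of these islets adaptive islet-derived sEVs (aid-sEVs) and those of NCD islets normal islet-derived sEVs (nid-sEVs). Each group had 3 libraries. In both groups the islets were cultured for 48 h before collection, so neither group shows vesicles as they are released in the animal. In the study's diet scheme the mice started either diet at 8 weeks of age. The study states that its experiments had biological replicates, without saying what separates the 3 libraries of a group, and the number of mice behind a library was not given in the sources used here. Ultracentrifuged vesicle fractions can also carry protein-bound miRNA from outside vesicles. Vesicles of a whole islet can come from any of its cells, and fewer cells of a type cannot be told apart from less RNA per cell or fewer vesicles per cell.

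Imprinted genes are transcribed mainly or only from the maternal or the paternal chromosome, at least in some tissues, and many act on growth and nutrient handling. Igf2 encodes an insulin-like growth factor made from the paternal allele. H19 is a long noncoding RNA made from the maternal allele of the same domain. Gnas encodes the stimulatory G-protein α subunit, which couples glucagon-like peptide receptors to cyclic AMP in β cells, and Nespas is an antisense transcript of that locus. Mest is a paternally expressed gene known as a marker of adipose tissue expansion. A miRNA hairpin is cut into a 5p and a 3p arm, and the arm that is kept pairs with target mRNAs mainly through its seed, bases 2 to 8.

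The 7 mature sequences are shown because the arms of a hairpin differed in level here and because the seed decides which mRNAs an arm can pair with. They were taken from RefSeq (GRCm38.p6) and run 5′ to 3′, with the seed in capitals. All 7 members matched that table.
miR-483-5p: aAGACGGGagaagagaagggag
miR-483-3p: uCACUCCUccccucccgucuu
miR-298-5p: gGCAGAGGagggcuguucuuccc
miR-296-3p: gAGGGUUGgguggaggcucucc
miR-296-5p: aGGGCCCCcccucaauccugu
miR-335-5p: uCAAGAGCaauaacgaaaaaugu
miR-335-3p: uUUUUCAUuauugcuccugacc
The 7 seeds were all different, and none of the other entries matched to RefSeq carried any of them (424 of the 479 entries with a miRBase name were matched, with 348 distinct seeds). The members therefore have imprinted loci in common and no shared seed. miR-483-5p consists almost only of purines (95.5% A or G), the highest share among the 424 matched entries, whose median was 50%. Its partner miR-483-3p had 9.52% purines, the lowest share of the 424.

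On GRCm38, the Mir483 hairpin lies on chromosome 7 at 142654924 to 142654996, on the minus strand and inside Igf2 (142650766 to 142666816). It is intronic, since 7 annotated Igf2 transcripts span it and 0 have an exon there. miR-483-5p itself is at chr7:142654968-142654989. The Mir675 hairpin of H19 begins at 142577064 on the same chromosome, 77776 bases away. Mir296 (chromosome 2, 174267047 to 174267125) and Mir298 (174267504 to 174267585) are 378 bases apart on the minus strand, with no annotated host gene, and lie 14111 and 13651 bases beyond the annotated end of Nespas. Mir335 (chromosome 6, 30741299 to 30741396, plus strand) is in an intron of Mest (30723547 to 30748465), with 7 spanning transcripts and 0 exons over it.

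The values are RPM, the reads of a miRNA scaled to a fixed library total, from which whole reads were recovered. nid-sEV libraries held 50534 to 129152 reads in total, and the aid-sEV libraries, mostly deeper, held 122266 to 519315. A count of 0 was taken to allow up to 3 reads, and these limits were 23.2, 45.7 and 59.4 RPM in nid-sEVs and 5.78, 8.52 and 24.5 RPM in aid-sEVs. Values of 1 to 3 reads are given as counted and carry a wide counting error. In nid-sEV replicate 1, 33.5% of reads fell on entries without a miRBase name, against 6.61 to 9.46% in the other libraries, so that library stands apart. RPM of different miRNAs also carries the ligation and amplification bias of each sequence, so a ranking of miRNAs by level is approximate. The loci were chosen by earlier results on the same 6 libraries, namely the aid-sEV to nid-sEV difference in RPM, in which miR-483-5p stood out, so that difference is a description, given by values, fold changes and standard errors (SE), and no p-value of a member is given for it.

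**Figure D1:**
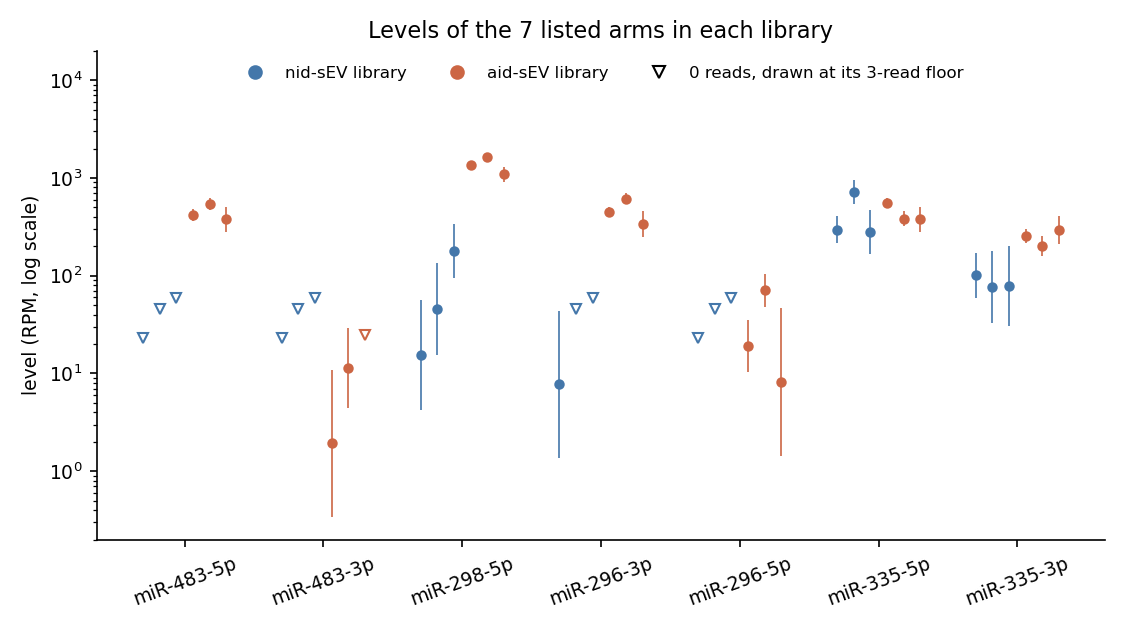
Level (RPM, log scale) of the 7 members in each of the 6 libraries, with nid-sEVs in blue and aid-sEVs in orange, ordered by replicate. Filled points are single libraries with 95% Wilson intervals for counting error, and open triangles are libraries with 0 reads, drawn at their limit of 3 reads; the aid-sEV points of miR-483-5p, miR-298-5p and miR-296-3p lie above all nid-sEV values, whereas those of miR-335-5p overlap.

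miR-483-5p, the main arm of the Igf2 hairpin, was read in every aid-sEV library and had no read in nid-sEVs. Its levels were 0, 0 and 0 RPM in nid-sEV replicates 1 to 3 and 418, 537 and 376.2 RPM in aid-sEV replicates 1 to 3, which are 217, 189 and 46 reads. The groups did not overlap. Its mean in aid-sEVs was 444 ± 83.2 RPM (SD, n = 3), where counting error alone would give an SD of 44.3 RPM. Against the highest nid-sEV limit, 59.4 RPM, the aid-sEV mean was at least 7.47-fold higher. The log2 fold change fitted on log2(RPM + 1) was 8.78 (SE 0.72), a value that depends on the added 1 because nid-sEVs were at 0.

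The lack of miR-483-5p reads in nid-sEVs was set against depth. At the aid-sEV mean, 57.3, 29.1 and 22.4 reads would have been counted in nid-sEV replicates 1, 2 and 3, and 0 were. The pair of libraries closest in depth between the groups were nid-sEV replicate 1 (129152 reads) and aid-sEV replicate 3 (122266 reads), with 0 and 46 reads of miR-483-5p. They are matched in total reads only, since 33.5% and 9.23% of their reads fell on entries without a miRBase name. Of the 43 other entries with an aid-sEV mean within a factor of 1.5 of that of miR-483-5p, 2 also had no read in any nid-sEV library. The median over the 43 was 74 nid-sEV reads. The lack of nid-sEV reads is part of the contrast that chose the loci, so these comparisons are a description. The part of depth in it was not tested. Ranked by mean level in aid-sEVs, miR-483-5p was entry 120 of 718.

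miR-483-3p, the other arm of this hairpin, was close to absent. No nid-sEV library had a read of it, and aid-sEV replicates 1 to 3 had 1, 4 and 0 reads, or 1.93, 11.4 and 0 RPM. Only aid-sEV replicate 2 held more than 3 reads, and the groups overlapped at 0. At the aid-sEV mean, 4.43 ± 6.08 RPM (SD, n = 3), under 1 read was to be counted in each nid-sEV library (0.57, 0.29 and 0.22), so a difference was not detectable at this depth. Of 87 other entries with a like level, 37 had no nid-sEV read either.

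**Figure D2:**
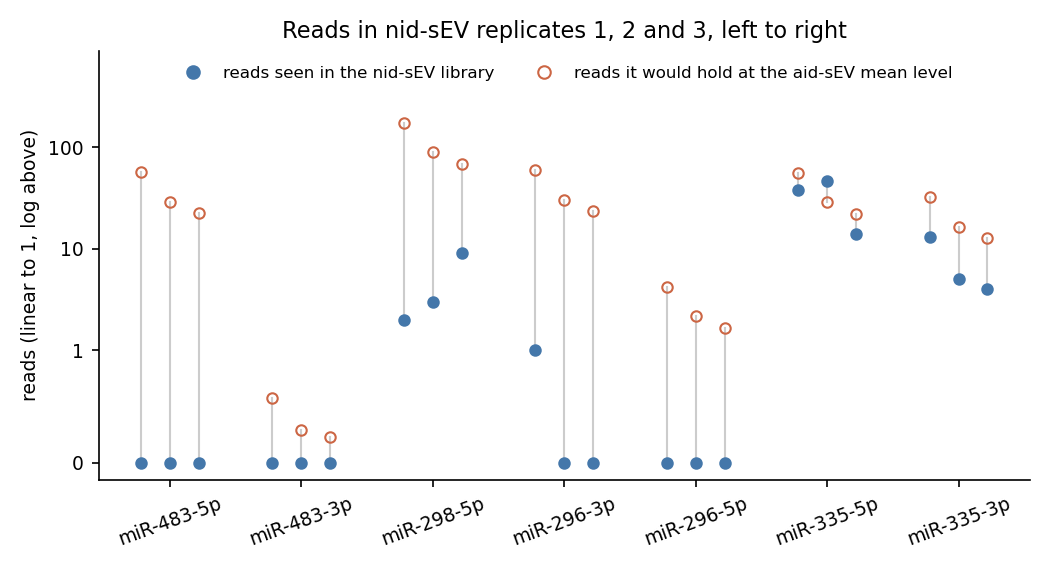
Reads of each member in nid-sEV replicates 1, 2 and 3, from left to right (filled blue points), joined to the reads each library would hold at the aid-sEV mean level (open orange circles), on an axis that is linear up to 1 read and logarithmic above. miR-483-5p had 0 reads where 22.4 to 57.3 would be held, whereas for miR-483-3p fewer than 1 would be held in any nid-sEV library.

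miR-298-5p was the most abundant member in aid-sEVs. Its levels were 15.5, 45.7 and 178 RPM in nid-sEVs and 1363, 1627 and 1088 RPM in aid-sEVs. All aid-sEV libraries were above all nid-sEV libraries, and within nid-sEVs replicate 3 was the highest. The means were 79.8 ± 86.5 and 1359 ± 269 RPM (SD, n = 3 each), a ratio of 17.0. The log2 fold change was 4.70 (SE 0.92). The nid-sEV libraries held 2, 3 and 9 reads of miR-298-5p, and aid-sEV libraries 708, 573 and 133. On pooled reads the ratio of rates was 24.9, with an exact 95% interval of 14.8 to 45.7 that covers counting error only.

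miR-296-3p, whose hairpin lies beside that of miR-298, had 1 read in nid-sEVs altogether. Levels were 7.74, 0 and 0 RPM in nid-sEVs and 449, 613 and 335.3 RPM in aid-sEVs, without overlap. The aid-sEV mean was 465.7 ± 139.7 RPM (SD, n = 3), close to that of miR-483-5p. The pooled ratio was 121, with a counting interval of 21.6 to 4788 that is wide because of the single nid-sEV read. The fitted log2 fold change, 7.78 (SE 1.09), depends on the added 1 as well. At the aid-sEV mean, 60.2, 30.6 and 23.5 reads would have been counted where 1, 0 and 0 were. Of 45 other entries of like level, 2 had no more than 1 nid-sEV read (median 92). The loci were chosen by this contrast, so these comparisons are a description.

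miR-296-5p was scarcer. It had no read in any nid-sEV library, against 10, 25 and 1 in the aid-sEV libraries, or 19.3, 71.0 and 8.18 RPM. The groups did not overlap, but aid-sEV replicate 3 held a single read. The aid-sEV mean, 32.8 ± 33.5 RPM (SD, n = 3), was under the highest nid-sEV limit, so no fold is given, and 4.24, 2.15 and 1.66 reads would have been counted in nid-sEVs at that mean. Of 92 other entries of like level, 11 had no nid-sEV read.

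miR-335-5p, the main arm of the Mest hairpin, did not separate the groups. Levels were 294, 716 and 277 RPM in nid-sEVs and 551, 383 and 376.2 RPM in aid-sEVs, and the groups overlapped, with nid-sEV replicate 2 the highest of all 6 libraries. The means were 429 ± 248 and 437 ± 98.8 RPM (SD, n = 3 each), a ratio of 1.02. The log2 fold change of 0.15 was smaller than its SE, 0.56. The sign turned with nid-sEV replicate 1 left out (-0.05), nid-sEV replicate 3 left out (-0.09), aid-sEV replicate 1 left out (-0.03) and with RPM rescaled to miRBase-named entries (-0.03), so no direction is given for it. On pooled reads the ratio was 1.16 (exact 95% interval, counting error only, 0.936 to 1.46).

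miR-335-3p had levels of 100.7, 76.1 and 79.2 RPM in nid-sEVs and 256, 202 and 294 RPM in aid-sEVs. All aid-sEV libraries were above all nid-sEV libraries. The means were 85.3 ± 13.4 and 251 ± 46.7 RPM (SD, n = 3 each), a ratio of 2.94, and the log2 fold change was 1.54 (SE 0.52), which did not meet the call rule given below. Per 1000 reads of miR-375-3p, an abundant miRNA of islet endocrine cells, the levels were 1.78, 0.506 and 0.228 in nid-sEVs and 1.57, 1.30 and 2.16 in aid-sEVs, so on that scale the groups overlapped. That overlap rests on nid-sEV replicate 1. The scale itself was uneven, since miR-375-3p was at 56584, 150356 and 346480 RPM in nid-sEV replicates 1 to 3, against 136424 to 163591 RPM in aid-sEVs.

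The arms of each hairpin were compared within libraries, a ratio that does not use the group contrast. The 5p arm took 98.9% of the 457 miR-483 reads in aid-sEVs (shares per library 99.5, 97.9 and 100%). The 3p arm took 93.2% of the 526 miR-296 reads there (95.9, 89.6 and 97.6%). For miR-335, 5p reads exceeded 3p reads in 6 of 6 libraries, with a mean log2 ratio of 1.45 (SD 0.94, n = 6). In a two-sided exact sign-flip permutation test this gave p = 0.031, the smallest that 6 libraries allow, and 0.094 after Benjamini-Hochberg adjustment over the 3 hairpins. For miR-483 and miR-296 only the 3 aid-sEV libraries held enough reads, where the smallest p of the exact permutation test is 0.25. Left out 1 at a time, libraries gave a mean log2 ratio for miR-335 of 1.11 to 1.67.

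The share of the 5p arm among miR-335 reads was 74.5, 90.4 and 77.8% in nid-sEVs and 68.3, 65.5 and 56.1% in aid-sEVs. The groups did not overlap in this share. Pooled, it was 81.8% in nid-sEVs (95% Wilson interval 74.0 to 87.7%) and 66.1% in aid-sEVs (62.5 to 69.4%). The nearest libraries, nid-sEV replicate 1 (61.1 to 84.5%) and aid-sEV replicate 1 (63.7 to 72.5%), had overlapping intervals. This difference between the groups was not tested.

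**Figure D3:**
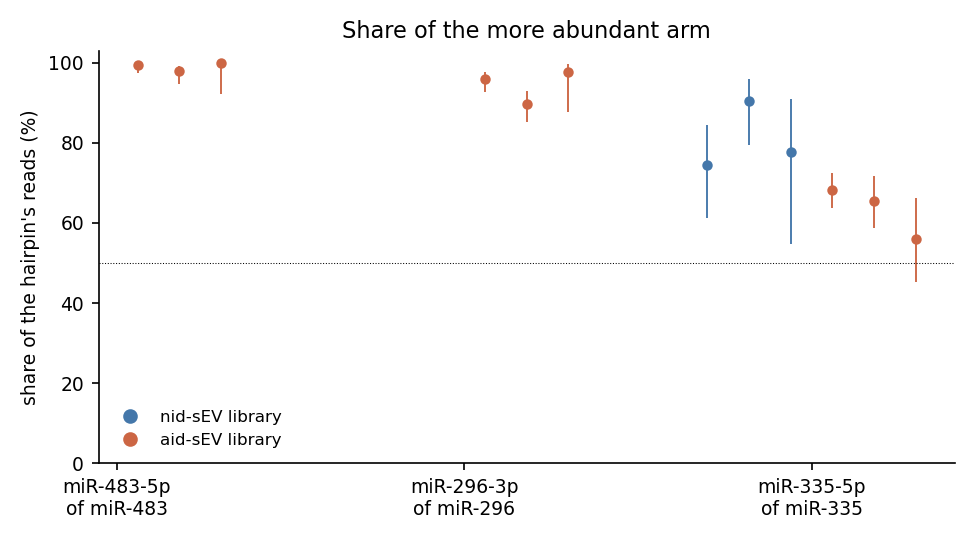
Share (%) of a hairpin's reads that came from its more abundant arm (5p for miR-483 and miR-335, 3p for miR-296), for each library with at least 10 reads over both arms, with 95% Wilson intervals. nid-sEVs are blue and aid-sEVs orange; the aid-sEV shares were 97.9 to 100% for miR-483, 89.6 to 97.6% for miR-296 and 56.1 to 68.3% for miR-335, and the nid-sEV shares of miR-335 were 74.5 to 90.4%.

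Summed over the 7 members, levels were 418, 838 and 534 RPM in nid-sEVs and 3058, 3444 and 2478 RPM in aid-sEVs, with means of 597 ± 217 and 2993 ± 485.95 RPM (SD, n = 3 each), a ratio of 5.02. The Mest arms summed to 514 ± 241 and 687 ± 112 RPM, a ratio of 1.34. The Gnas and Nespas arms summed to 82.3 ± 83.7 and 1858 ± 440 RPM, a ratio of 22.6. The make-up of the members' reads differed accordingly. miR-335 took 94.4% (51 of 54 reads), 94.5% (52 of 55) and 66.7% (18 of 27) of them in nid-sEVs, and 26.4, 17.0 and 27.1% in aid-sEVs. In aid-sEVs miR-298 took 43.9 to 47.2%, miR-296 13.9 to 19.9% and miR-483 13.7 to 15.9%.

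**Figure D4:**
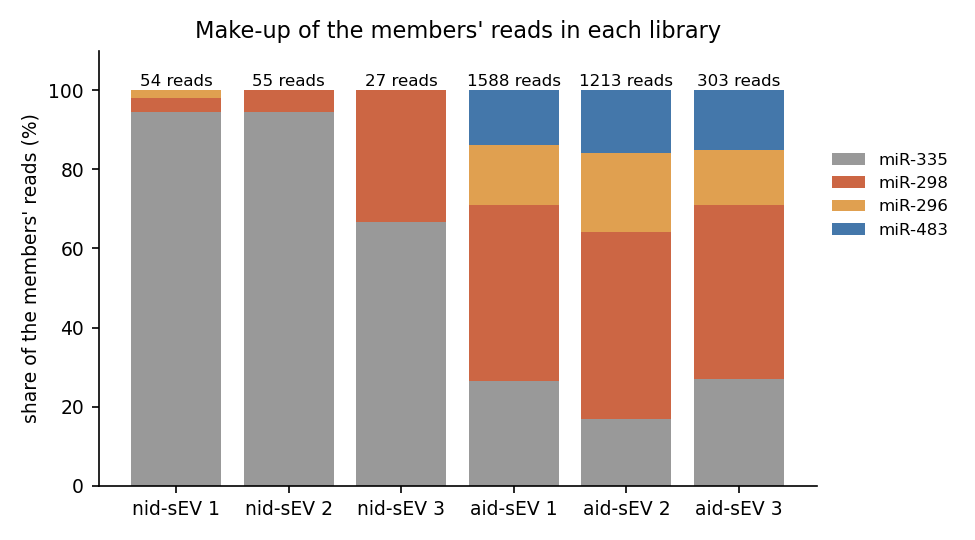
Stacked bars of the share (%) of the members' reads that each miRNA took, both arms together, in each of the 6 libraries, with the number of members' reads written above each bar. miR-335 (grey) took 66.7 to 94.5% in nid-sEVs and 17.0 to 27.1% in aid-sEVs.

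Within aid-sEVs, the ratio between the Gnas and Nespas miRNAs varied less from library to library than their levels did. The ratio of miR-298-5p to miR-296-3p was 3.04, 2.65 and 3.24 in the 3 libraries, with a coefficient of variation (CV) of 10.1%, against 19.8% for the level of miR-298-5p and 30.0% for that of miR-296-3p. miR-483-5p, on another chromosome, stood to miR-296-3p in ratios of 0.931, 0.875 and 1.12 (CV 13.3%). The ratio of miR-335-5p to miR-483-5p varied more, at 1.32, 0.714 and 1 (CV 29.9%). So did those of miR-298-5p to miR-335-5p (CV 28.9%) and of miR-483-5p to miR-335-3p (CV 38.7%). The arms of the miR-335 hairpin, from a single locus, also varied more in ratio (CV 25.3%) than in level (22.6% for 5p and 18.6% for 3p). These ratios rest on 3 libraries that share preparation but differ in depth (122266 to 519315 reads). aid-sEV replicate 3 held only 41 reads of miR-296-3p, so counting error is part of this spread. How large a part was not tested, and the ratios are a description.

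Over the whole table, 15.6% of the 718 entries were called higher in aid-sEVs (112 entries) and 1.81% lower (13 entries), together 17.4%. A call required a log2 fold change beyond 1 in either direction and p under 0.05 in limma, fitted on log2(RPM + 1), after Benjamini-Hochberg adjustment. Of the 7 members, miR-483-5p, miR-298-5p, miR-296-3p and miR-296-5p were called higher, and 0 were called lower (0 also at an unadjusted p under 0.05, and 0 by edgeR and by DESeq2). These calls come from the contrast that chose the members and are counted only to set them beside the share over the table. In 24.2% of all entries every aid-sEV library was above every nid-sEV library and in 7.52% below, and 5 of the 7 members were of the first kind and 0 of the other. Nothing is read from either count. Of the 112 entries called higher, 75 had no nid-sEV read, as did 155 entries in all, among which miR-483-5p ranked 2 in fitted fold change. The median log2 fold change over all entries was 1.11 and over the 219 entries detected in every library -0.21, and the members' median was 4.57, a fitted value that depends on the added 1, or 1.54 with entries at 0 in nid-sEVs set to their bound. Relative to the median of the 219 entries, miR-298-5p was higher by 4.91 and miR-335-3p by 1.75. The gap of miR-335-5p from that median, 0.36, was smaller than the SE of its fold change (0.56), so no direction is given for it.

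Single libraries moved these descriptions. Without nid-sEV replicate 1, which held the only nid-sEV read of miR-296-3p, the fitted log2 fold change of that miRNA was 8.82. That of miR-298-5p was 3.88 without nid-sEV replicate 1 and 5.60 without nid-sEV replicate 3. miR-298-5p no longer met the call rule without nid-sEV replicate 2 or any 1 of the aid-sEV libraries, with log2 fold changes of 4.56 to 4.85 then. miR-296-5p no longer met it without nid-sEV replicate 2, nid-sEV replicate 3 or aid-sEV replicate 1. Neither met it with all libraries thinned to the depth of the smallest, or with the replicate number added to the model. With the replicate number added, miR-483-5p and miR-296-3p did not meet it either, nor did any other entry of the table. miR-296-5p also did not meet it with 10 rather than 1 added to RPM, by edgeR without a filter or by DESeq2.

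**Figure D5:**
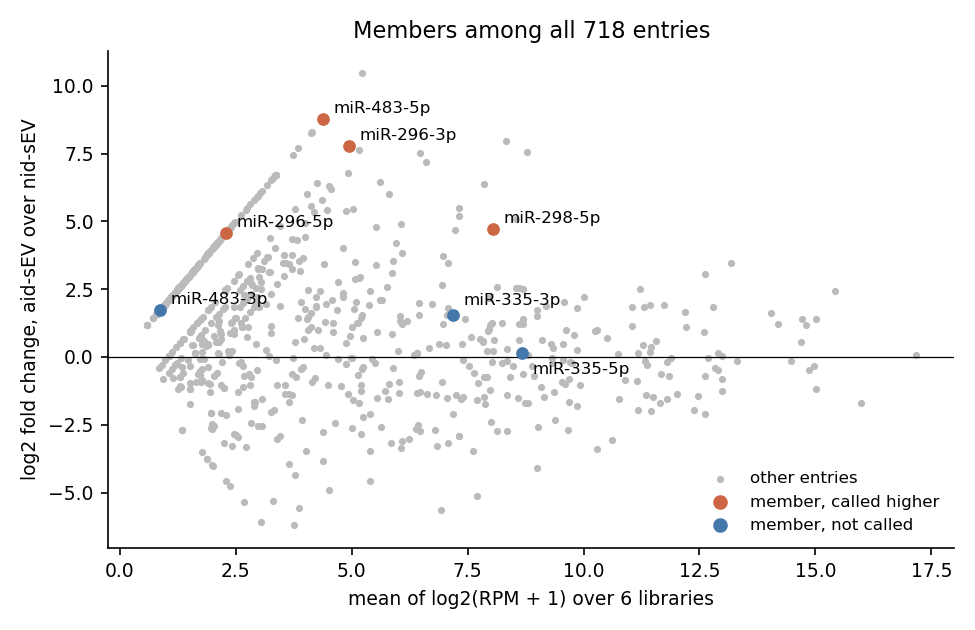
Log2 fold change of aid-sEVs over nid-sEVs against the mean of log2(RPM + 1) over the 6 libraries, for 718 entries (grey). Members called higher are orange and the others blue; miR-483-5p is at 8.78 and miR-335-5p at 0.15, and the height of entries with no nid-sEV read depends on the added 1.

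The entries with library profiles closest to a member were sought among those with at least 100 aid-sEV reads, by the root mean square distance of centred log2 levels over the 6 libraries. For miR-298-5p these were miR-673-3p (0.906), miR-669c-5p (1.04) and miR-743b-3p (1.04), with 1, 1 and 2 nid-sEV reads, where the median distance of 219 candidates was 2.68. miR-296-3p, its genomic neighbour, ranked 91 (2.49). In nid-sEVs it had 1, 0 and 0 reads where miR-298-5p had 2, 3 and 9, too few for this rank to be read. For miR-483-3p, the least abundant, they were let-7b-3p (0.768), miR-382-5p (0.873) and miR-151-5p (0.931) (median of 220 candidates 1.85). The profile of miR-483-3p rests on 5 reads in all, too few for this nearness to be read. For miR-483-5p, looked up after its values were seen, they were miR-465c-5p (0.315), miR-346-5p (0.340) and miR-743a-3p (0.555), all with 0 nid-sEV reads. For this member miR-296-3p ranked 11 (median distance of 219 candidates 4.15). These distances include the group difference that chose the members, so a member at 0 in nid-sEVs lies near other entries at 0. Nothing is read from the nearness to miR-483-5p, or to miR-298-5p, whose neighbours had few nid-sEV reads.

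Other imprinted miRNAs were listed for comparison. Of 71 listed miRNAs of the Dlk1-Dio3 region on chromosome 12, 14 (19.7%) were called higher, where 15.6% of all entries were, and 0 lower. In 24 (33.8%) all aid-sEV libraries were above all nid-sEV libraries, as in 24.2% of all entries. The median log2 fold change was 1.25, near the 1.11 of all entries. By edgeR's quasi-likelihood test without a filter 6 were called higher and by DESeq2 7, and 0 lower by either, where at an unadjusted p under 0.05 limma had 0 lower and DESeq2 1. With entries at 0 in nid-sEVs set to their bound, these medians were 0.18 and 0. Its 2 most abundant miRNAs in aid-sEVs were not called. miR-541-5p was at 22633 ± 6275 and 32256 ± 3738 RPM (log2 fold change 0.54, limma adjusted p = 0.26) and miR-127-3p at 36967 ± 9845 and 29017 ± 2626 RPM (-0.32, limma adjusted p = 0.47). miR-411-5p had the largest fold change among those detected in every library, 125 ± 60.3 and 679.4 ± 9.70 RPM (2.57, limma adjusted p = 0.030), and miR-540-5p the smallest, 381.6 ± 153 and 132 ± 60.4 RPM (-1.58, limma adjusted p = 0.18).

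Of 10 listed miRNAs of the Sfmbt2 cluster families miR-297, miR-466, miR-467 and miR-669, 6 were called higher, where 15.6% of all entries and 48.4% of the 155 entries without a nid-sEV read were, and 0 lower. Of the 10, 7 had no nid-sEV read. The median log2 fold change was 3.22, or 0 with these entries at their bound, and the sums were 0 to 19.8 RPM in nid-sEVs and 368 to 470 RPM in aid-sEVs. The most abundant were miR-669c-5p, with 6.60 ± 11.4 and 199.3 ± 17.6 RPM (log2 fold change 6.18, limma adjusted p = 0.030), and miR-467a-5p, with 2.58 ± 4.47 and 135 ± 38.8 RPM (6.01, limma adjusted p = 0.022). edgeR and DESeq2 each called 2 of the 10 higher and 0 lower, with 0 lower at an unadjusted p under 0.05 in all 3 tests. Near-identical copies of this cluster share reads, so their counts are uncertain. Their place in the cluster rests on their names, since 0 of the 10 were matched to a position in RefSeq.

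Markers of islet cells and of other cells were set beside these differences. The summed level of 4 endocrine miRNAs (miR-375-3p, miR-7a-5p, miR-7b-5p and miR-184-3p) was 74718 to 360886 RPM in nid-sEVs and 164821 to 186134 RPM in aid-sEVs, the aid-sEV values lying within the nid-sEV range, and 1 of the 4 (miR-7b-5p) was called higher. Acinar markers (miR-216a-5p, miR-216b-5p, miR-217-5p) summed to 2533 to 8997 and 698 to 3370 RPM, mesenchymal markers (miR-143-3p, miR-145a-5p, miR-199a-3p, miR-199a-5p, miR-214-3p) to 5383 to 24080 and 4480 to 11623 RPM, and endothelial markers (miR-126a-3p, miR-126a-5p) to 989 to 3717 and 678.5 to 1325 RPM, with 0 of 3, 0 of 5 and 0 of 2 called in either direction by limma, edgeR or DESeq2. At an unadjusted p under 0.05 with a log2 fold change beyond 1, limma had 1 mesenchymal marker lower, and DESeq2 had 1 acinar and 1 mesenchymal marker lower. Blood and liver markers (miR-451a, miR-144-3p, miR-486a-5p, miR-142a-3p, miR-142a-5p, miR-223-3p, miR-122-5p) summed to 4611 to 10654 and 426 to 1562 RPM, and 2 of 7 (miR-122-5p and miR-486a-5p) were called lower by limma, 1 by edgeR and 4 by DESeq2. No marker was at 0 in all libraries of a group. The part of these cell types in the members' levels was not tested. Per 1000 reads of miR-375-3p, miR-298-5p was at 0.274, 0.304 and 0.514 in nid-sEVs and at 8.33, 10.5 and 7.97 in aid-sEVs, and miR-483-5p at 0 in all nid-sEV libraries and at 2.55, 3.45 and 2.76 in aid-sEVs, so for both miRNAs the groups stayed apart on that scale.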

How the data were processed

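Small RNA libraries from sEVs of cultured islets, 3 per group, were grouped by their labels and analysed as deposited. The authors deposited a single table of 718 entries with RPM per library, relative to that library's total. The submitters' processing notes name fastp 0.23.0, HISAT2 2.2.1 and GRCm38, and the counting step and filters were not given in the sources used here. Every entry had reads in at least 2 libraries. The table's columns with the authors' own comparison (fold change, p-value and the like) were not used.

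RPM divided by the value of 1 read gave whole reads for 100% of values (tolerance 0.001 read), and these counts gave the library totals, the limit of 3 reads that a count of 0 allows, 95% Wilson intervals for shares and exact intervals for pooled ratios. Intervals and limits cover counting error only, since reads without molecular identifiers are not independent molecules. In R 4.3.3, limma 3.58.1 (eBayes with trend) was fitted to log2(RPM + 1) over all 718 entries with group as the only term, and p-values were Benjamini-Hochberg adjusted over all entries. Fold changes of low entries on this scale depend on the added 1 and can understate or overstate the ratio of mean levels. Those of entries at 0 are set by the added 1. Arm ratios were tested on log2 ratios with 0.5 read added to each arm, in libraries with at least 10 reads over both arms, with scipy 1.17.1. edgeR 4.0.16 and DESeq2 1.42.0 on the recovered reads, other pseudocounts, filters, scalings, thinning, a replicate block and leaving out each library were alternatives. Scaling to miR-375-3p was added after seeing the data. The steps were tested on simulated data, in which some low entries were called higher without a change at these unequal depths. Hairpin positions are from GENCODE M21 and mature sequences from RefSeq.

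The members and lists were chosen with earlier results of these data known. Besides the members, named entries were the 3 with profiles nearest to the most and the least abundant member, the 2 most abundant of each imprinted list with its largest and smallest fold change among entries detected in every library (0 of the Sfmbt2 list were), the markers, and any entry sharing a member's seed. The neighbours of miR-483-5p were added after its values were seen.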

Additional observations from a re-analysis of the deposited data

How the results depend on the processing

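The members' fold changes are a description under every setting, since this contrast chose them. Over the 18 alternatives the fitted log2 fold changes were 5.49 to 12.1 for miR-483-5p, 5.25 to 10.04 for miR-296-3p, 3.88 to 5.96 for miR-298-5p and 1.13 to 2.03 for miR-335-3p. The 112 entries called higher became 62 with a pseudocount of 10, 69 with a mean RPM of at least 10, 55 with thinned reads, 48 and 56 with edgeR's quasi-likelihood test with and without its filter, and 65 with DESeq2. The 13 called lower became 8 with a pseudocount of 0.1, 3 with TMM factors, 4 with scaling to miR-375-3p, 21 and 7 with the quasi-likelihood test with and without its filter, and 50 with DESeq2. Thinning left 2 members called higher, and edgeR and DESeq2 left 3. Leaving out each library gave 33 to 150 called higher (33 without nid-sEV replicate 2, 61 without nid-sEV replicate 3), 1 to 26 lower (26 without nid-sEV replicate 1, 1 without nid-sEV replicate 2, and 4, 2 and 8 without aid-sEV replicates 1, 2 and 3) and 2 to 4 members higher (2 without nid-sEV replicate 2 or aid-sEV replicate 1). The median of all entries, 1.11, was 1.43 with TMM factors, 1.28 after centring, 0.90 with scaling to miR-375-3p and -0.021 with the filtered quasi-likelihood test, which tests fewer entries. The log2 fold change of miR-335-5p was -0.026 with miRBase-named entries only and ran from -0.094 to 0.59 when libraries were left out. The mean log2 arm ratio of miR-335 ran from 1.11 to 1.67, with an exact permutation p of 0.0625, the smallest that 5 libraries allow. The cause of these moves was not tested.

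Deviations from the group mean in samples with the same replicate number had correlations of -0.054, 0.131 and -0.109 over 219 entries. With 3 libraries per group, these values cannot decide whether the numbers pair the libraries, and the sources used here do not say what the numbers mean. The libraries were treated as unpaired. With the replicate block, limma called 0 entries higher, 0 lower and 0 members, against 148 entries higher and 39 lower at an unadjusted p under 0.05. Differences below about 3 reads per library cannot be resolved at these depths.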
